A study of Drosophila melanogaster with 3 samples.

Results

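The genes described here are 41 Drosophila melanogaster genes of DNA replication and the cell cycle, taken by name from a list of known replication and cell cycle factors, out of 13945 annotated protein-coding genes. They fall into 5 roles: 9 origin and licensing genes, 8 genes of the MCM helicase, 4 replication enzymes, 15 cyclins, kinases and their regulators, and 5 genes of the E2F and Rbf group. All 41 were found in the annotation, 1 of them (lat, the fly Orc3) through a synonym. The chromatin sites come from ChIP-seq with an antibody against GFP on whole mixed-sex embryos collected from 0 to 24 h, from a transgenic line that stably expresses CG15514 with a C-terminal eGFP tag. There were 3 biological replicates, which form 1 group, with no second genotype, age or treatment. Because whole organisms were used, binding in many cells and strong binding in few cells cannot be told apart. All coordinates below are on dm6. A gene was counted as having a promoter peak where a summit of the thresholded list, which the authors made from all 3 replicates, lay within 500 bp of any of its annotated transcription start sites (TSS). The height of a peak is given as its signal value, which the peak caller set against a control, and its rank is its place by signal among the 8708 thresholded peaks. Signal values were compared only within a list. Read counts are not part of these lists, and the depth of each library is unknown.

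Before a cell copies its DNA, the origin recognition complex (Orc1 to Orc6, with lat as Orc3) marks the origins, and Cdc6 and dup (Cdt1) load the MCM helicase onto them. Cyclin and kinase pairs then start synthesis and later drive mitosis. The E2F factors with their partner Dp activate or repress many of these genes, and the Rbf proteins, the fly retinoblastoma relatives, hold E2F back. The first nuclear cycles of the fly embryo run on maternal stores of these proteins, so the embryos collected here span fast early cycles, later patterned cycles and cells that have left the cycle.

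The following promoter stretches show the sequence at 3 of the strongest summits among these genes, at 3 summits of moderate signal, and at 2 start sites with no thresholded peak. All are from the Release 6 genome sequence, written 5′ to 3′ on the strand of the gene named, with capitals marking the GAAC, DRE, E2F and Ohler 1 words. The GAAC words (GAACCAG or GAACTAG) were picked out of these same peaks in earlier work, the DRE word (TATCGATA) is the core of the DNA replication-related element, the E2F words are TTTCCCGC, TTTGGCGC, TTTCGCGC and TTTGCCGC, and GGTCACAC is the Ohler 1 core promoter word. Each word was sought as an exact match on both strands. In Mcm2 a GAAC word on each strand overlaps in an inverted repeat. In stg the capitals are an E2F word read on the opposite strand.
PCNA2 (chr2L:19584103-19584234, minus strand): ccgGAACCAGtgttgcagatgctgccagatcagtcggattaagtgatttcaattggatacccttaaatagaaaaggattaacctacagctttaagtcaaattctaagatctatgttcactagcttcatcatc
CycD (chrX:15909677-15909810, minus strand): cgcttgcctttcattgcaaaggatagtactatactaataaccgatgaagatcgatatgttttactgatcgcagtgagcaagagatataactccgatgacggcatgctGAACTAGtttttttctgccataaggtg
Mcm2 (chr3R:8264452-8264558, plus strand): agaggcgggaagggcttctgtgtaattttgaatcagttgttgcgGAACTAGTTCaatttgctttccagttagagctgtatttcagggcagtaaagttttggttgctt
Orc5 (chr2L:13829742-13829836, plus strand): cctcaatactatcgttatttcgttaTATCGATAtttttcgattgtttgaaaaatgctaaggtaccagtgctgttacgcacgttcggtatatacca
CycA (chr3L:11833579-11833679, minus strand): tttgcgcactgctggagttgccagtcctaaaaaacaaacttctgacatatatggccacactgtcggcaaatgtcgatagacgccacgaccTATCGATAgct
Rbf2 (chr3R:15965352-15965445, plus strand): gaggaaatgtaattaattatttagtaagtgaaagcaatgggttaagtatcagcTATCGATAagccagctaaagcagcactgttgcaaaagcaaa
Mcm3 (chrX:5323780-5323856, plus strand): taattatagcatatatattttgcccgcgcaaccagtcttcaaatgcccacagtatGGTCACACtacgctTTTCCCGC
stg (chr3R:29255801-29255875, minus strand): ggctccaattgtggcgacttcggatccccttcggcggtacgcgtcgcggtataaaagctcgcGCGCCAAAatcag

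A promoter peak was present at 34 of the 41 genes, or 82.9%, against 42.9% of all protein-coding genes. The peaks spanned almost the whole range of the thresholded list, from a signal of 143.0 at Cdk2 (rank 7309) to 55473 at PCNA2 (rank 4). Their median signal was 361.6 and their median rank 2458, against a median signal of 314.6 and a median rank of 2955 over the 5985 protein-coding genes with a promoter peak. Of the 34 peaks, 29 lay in the stronger 50% of the thresholded list, or 85.3%, against 68.0% of all genes with a promoter peak. No test was made of any of these differences, because the genes were chosen with earlier results of these data known.

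Among these genes, 4 strong peaks stood apart from the other 30. PCNA2, Orc6, CycD and Mcm2 had signals from 11369 to 55473 and ranks from 4 to 147, so 4 of the 41 genes (9.76%) reached the 200 strongest peaks, against 1.98% of all protein-coding genes. They belong to different roles, 1 each to the enzymes, the origin genes, the cyclins and the MCM helicase. The other 30 peaks had signals from 143.0 to 785.5 and ranks from 757 to 7309, with none of the 41 genes in between by its strongest summit. The gap is not general. Other replication genes described below lay in it, such as DNAlig1 at 1955 and Cdc7 at 880.7, as did a second CycD summit of 1880. The 4 strong peaks were also the 4 widest, at 1230 to 1581 bp. They alone were wider than 424 bp, a share of 11.8% against 7.77% over all genes with a promoter peak. Of the rest, 19 had 1 common width of 424 bp and 11 were narrower, at 109 to 288 bp, shares of 55.9% and 32.4% against 59.3% and 32.9% over all genes with a promoter peak.

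**Figure D1:**
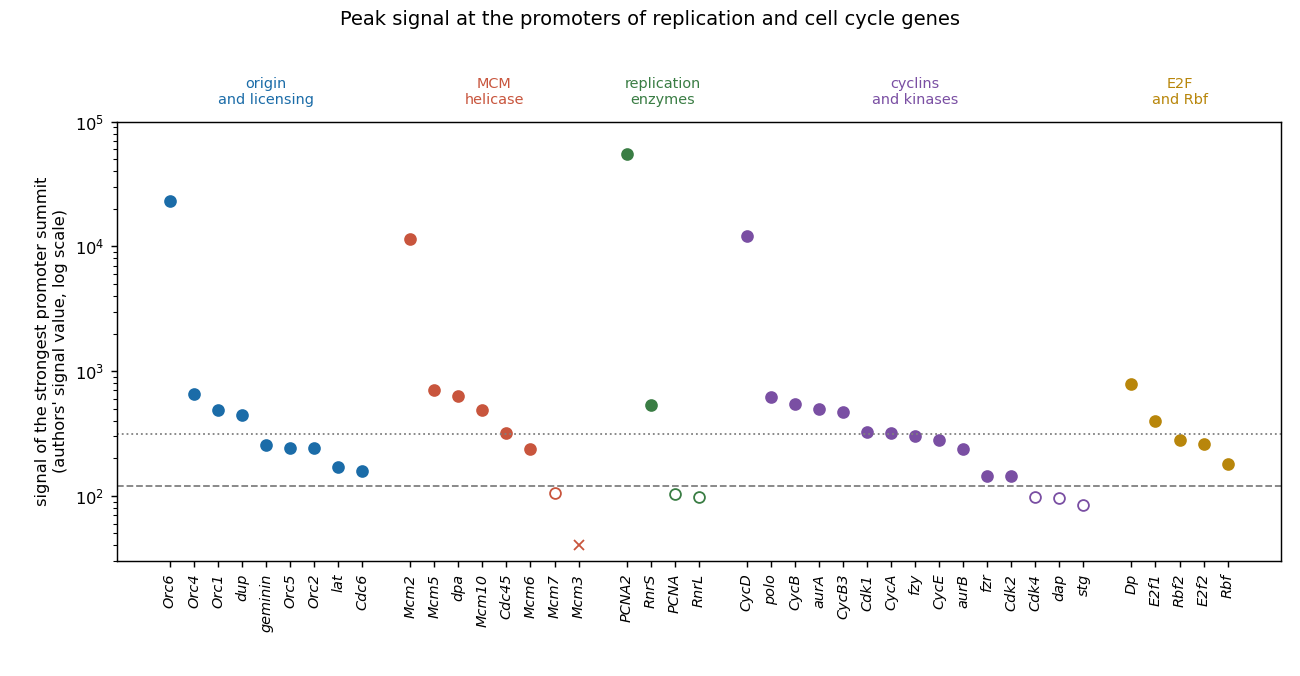
Signal value of the strongest promoter peak (log axis) for each gene, grouped by role, with open circles at the pooled entry of genes below the threshold, a cross for Mcm3, which has no such entry and is drawn at an arbitrary height, a dashed line at the threshold of 118.9 and a dotted line at 314.6, the median over all genes with a promoter peak. PCNA2, Orc6, CycD and Mcm2 lie at 11369 or more, and every other peak lies at 785.5 or less.

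All 9 origin and licensing genes had a promoter peak, with a median signal of 256.7, and 8 of the 9 were supported in each of the 3 replicates. A replicate supports a peak here if its own list, read down to entry 8708 by signal, has a summit no more than 100 bp away. Orc6 (FBgn0023180, chr2R:9845458-9846485, minus strand) stood far above the rest, with a signal of 22925 at a summit 44 bp upstream of its TSS, in intergenic sequence with no other gene's TSS within 500 bp. Its ranks were 93, 76 and 87 in replicates 1, 2 and 3 (85.3 ± 8.62, SD, n = 3). All 3 replicates therefore placed it among their 100 strongest sites. Among the other subunits, Orc4 (656.2, rank 976) and Orc1 (484.8, rank 1551) were the next strongest. Orc5 had a signal of 243.8 and Orc2 242.7, ranks that differ by less than the spread between their replicates (4077 ± 984 for Orc5 and 4684 ± 611 for Orc2, SD, n = 3). The Orc5 summit lay nearer to the TSS of Arpc1 (28 bp) than to its own (68 bp). The weakest subunit was lat, with 2 summits of 171.7 and 165.8 in front of its 2 start sites. The 6 subunits of this complex thus had peaks from rank 90 to rank 6137.

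The licensing factors were closer together. The peak nearest dup, which brings the MCM helicase to origins, had a signal of 444.3 (rank 1761) and ranks of 1990, 1472 and 2013 in the replicates. Its summit lay nearer to the TSS of SRPK, 11 bp away, than to that of dup, 99 bp away. The gene for geminin, the inhibitor of dup, had a signal of 256.7 (rank 3938), with a summit 17 bp upstream of its TSS. Cdc6, the loading ATPase, had the weakest peak of the role, 157.7 (rank 6627). Matched within 100 bp, its ranks were 20589, 5909 and 6605 (11034 ± 8282, SD, n = 3). Replicate 1 also had a stronger entry that overlapped the Cdc6 peak, at rank 6307 with its summit 158 bp away, so the low rank there rests on the 100 bp limit. By that limit Cdc6 was the only origin or licensing gene without support in all 3 replicates.

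Of the 8 MCM genes, 6 had a promoter peak, with the highest median signal of the 3 roles with more than 5 genes, 559.1. All 6 of these summits lay within 500 bp of another gene's TSS as well. At Mcm2, Mcm5, Mcm10 and Cdc45 the summit lay nearer to the neighbour's TSS than to the gene's own. The median of 559.1 includes these summits. By the nearest TSS only, 5 of the 8 genes kept a peak. The Mcm2 gene (FBgn0014861, chr3R:8264970-8267924, plus strand), for a subunit of the helicase ring, had an interval of 1352 bp with 3 summits. The strongest, 11369, lay 487 bp upstream of the Mcm2 TSS and 32 bp from the TSS of RPA1, the large subunit of the single-strand DNA binding protein, so its place at Mcm2 rests on the 500 bp limit. A second summit of 5857 (rank 192) lay 13 bp downstream of the Mcm2 TSS itself, with ranks of 183, 182 and 190 in the replicates. The third, 5305 (rank 197), lay between the other summits. The Mcm2 start site was thus among the 200 strongest sites also by the summit closest to it.

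The other helicase genes had moderate or weak peaks. Mcm5 had a signal of 700.8 (rank 879), with its summit nearer to the TSS of Art1 (115 bp) than to its own (183 bp). A second Mcm5 summit of only 179.7 (rank 5874) lay 18 bp downstream of its own TSS, with no summit within 100 bp in replicate 2. The Mcm4 gene, dpa, had 632.6 (rank 1023), at a summit 122 bp downstream of 1 of its start sites and 146 bp upstream of its other one. The ranks of the strongest summits were 616, 877 and 1181 for Mcm5 and 1243, 925 and 1036 for dpa, so the replicates do not order the pair. Mcm10, a factor that helps start the helicase, had 485.6 (rank 1541) at a summit nearer to the TSS of bur (78 bp) than to its own (172 bp). In replicates 1 and 2 the ranks of this summit were 1266 and 1873, but replicate 3 had no summit within 100 bp of it. The overlapping entry of replicate 3 peaked 220 bp away at rank 11486. A second Mcm10 summit of only 170.6 (rank 6186) lay 36 bp downstream of its own TSS. Cdc45, which travels with the helicase at the fork, had 317.1 (rank 2930), shared with Rpp21. Mcm6 had 239.1 (rank 4305), with ranks of 4386, 4248 and 4633, a tight set for a weak peak. Mcm3 and Mcm7 had no thresholded peak. The ring of Mcm2 to Mcm7 was therefore covered at 4 of its 6 subunits.

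The 4 replication enzymes split evenly. PCNA2 (FBgn0032813, chr2L:19582823-19583990, minus strand), a paralogue of the sliding clamp PCNA, had the highest signal of all 41 genes, 55473, and ranks of 4, 5 and 4 (4.33 ± 0.577, SD, n = 3). Its summit lay 188 bp upstream of PCNA2 and 57 bp from the TSS of CG10366, a divergent neighbour, and which of these genes the site serves was not tested. PCNA itself, the clamp that holds the polymerase on DNA, had no thresholded peak. Its strongest pooled entry, 60 bp upstream of the TSS, had a signal of 103.7 and rank 9870. For genes without a thresholded peak, replicate ranks are those of the strongest entry within 500 bp of a TSS, here 7826, 11161 and 11656. The 2 clamp genes were thus far apart, with no overlap of their replicate ranks. The same held less widely for ribonucleotide reductase, the enzyme that makes deoxynucleotides. The small subunit gene RnrS had a signal of 540.1 (rank 1309; ranks of 1122, 1291 and 1565), whereas the large subunit gene RnrL had only a pooled entry of 98.23 at rank 10366 (ranks of 12556, 23526 and 11022).

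**Figure D2:**
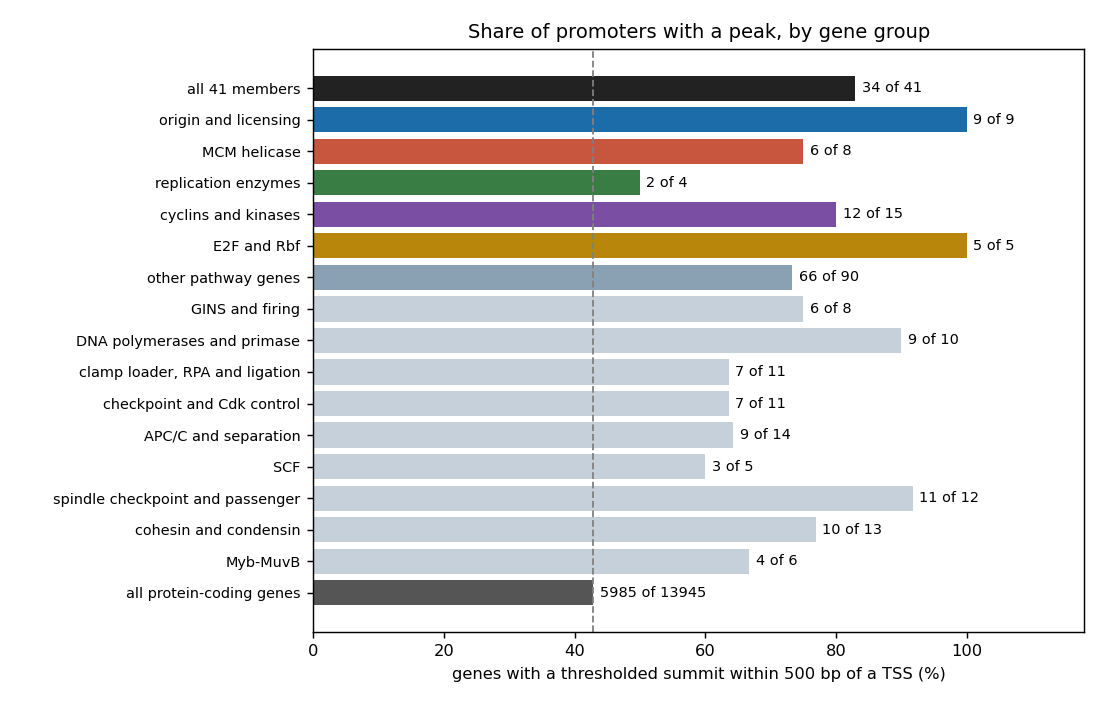
Share of genes with a promoter peak, in percent, for the 5 roles, all 41 genes, 90 other replication and cell cycle genes with their 9 lists, and all protein-coding genes (also the dashed line), with counts beside the bars. The roles run from 50% (replication enzymes) to 100% (origin and licensing, E2F and Rbf), and all protein-coding genes stand at 42.9%.

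Among the 15 cyclins, kinases and regulators, 12 had a promoter peak, with a median signal of 321.9. CycD (FBgn0010315, chrX:15906822-15909676, minus strand), the cyclin that couples growth to the cycle through Cdk4, was the strongest, with a signal of 12139 at a summit 59 bp upstream of its TSS, shared with no other gene. Its ranks were 132, 146 and 140 (139 ± 7.02, SD, n = 3). A second CycD summit of 1880 (rank 325) lay farther upstream. Cdk4, the partner of CycD, had no promoter peak at any of its 5 start sites. Its nearest thresholded summit lay 610 bp from a TSS with a signal of 281.8 (rank 3474), just outside the limit, and its interval reached into the 500 bp. CycE, which drives entry into S phase, had 282.1 (rank 3468), and its kinase gene Cdk2 had 143.0 (rank 7309), the weakest of the 34 peaks. The CycE summit was 401 bp from its TSS, and replicate 3 placed its overlapping entry 247 bp away at rank 3148.

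All 3 mitotic cyclins had a promoter peak of moderate signal. CycB had a signal of 545.1 (rank 1292), CycB3 469.9 (rank 1626) and CycA 317.0 (rank 2932). Their replicate ranks were 1299 ± 113 for CycB, 1763 ± 436 for CycB3 and 2961 ± 337 for CycA (SD, n = 3). CycB ranked above CycB3 and CycB3 above CycA in each of the 3. Cdk1, the kinase they share, had 326.9 (rank 2801) at a summit shared with mRpS7. Of the mitotic kinases, polo had 618.8 (rank 1054), aurA, which acts at centrosomes, 495.9 (rank 1492), and aurB, of the chromosomal passenger complex, 238.6 (rank 4310). In replicate 3 the entry that overlapped the aurB peak had its summit 145 bp away. The activators of the anaphase-promoting complex differed, with 304.3 (rank 3112) at fzy, which acts in mitosis, and 145.1 (rank 7201) at fzr, which acts in G1. The fzy summit lay nearer to the TSS of cni (52 bp) than to its own (178 bp). The fzr summit was 497 bp from the TSS, inside the 3′ UTR of a neighbour, and only just within the limit. Neither stg, the Cdc25 phosphatase that triggers mitosis, nor dap, the inhibitor of CycE with Cdk2, had a thresholded peak.

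All 5 genes of the E2F and Rbf group had a promoter peak, all supported in 3 of 3 replicates, and none was among the 200 strongest. Dp, the partner of both E2F proteins, had the highest signal, 785.5 (rank 757), with ranks of 908, 787 and 705, with a further summit of 428.1 just upstream of another of its start sites and another, of 414.2, downstream of the same TSS as the strongest. The activator E2f1 had 396.3 (rank 2116) with ranks of 1981, 2062 and 2153 (2065 ± 86.0, SD, n = 3). Rbf2 followed with 278.2 (rank 3549), the repressor E2f2 with 258.4 (rank 3897) and Rbf with 179.8 (rank 5870). Dp ranked above E2f1 and E2f1 above the other three in every replicate, whereas E2f2, Rbf2 and Rbf overlapped in their ranks. The Rbf summit lay 260 bp upstream of its TSS in the 3′ UTR of an adjacent gene.

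The 7 genes without a thresholded peak were Mcm3, Mcm7, PCNA, RnrL, Cdk4, dap and stg. In 6 of the 7 the pooled list, which holds 30000 entries of peaks and background together, still had a summit within 500 bp of a TSS. These entries had signals from 84.04 to 105.5 and ranks from 9705 to 12004, below the weakest thresholded signal of 118.9. In replicates 1, 2 and 3 the ranks were 10737, 28293 and 8138 for Mcm7 and 12858, 9363 and 11384 for Cdk4. They were 17223, 9748 and 11012 for dap. For stg they were 14470 and 10357 in replicates 1 and 3, with no entry in replicate 2. Among all protein-coding genes without a promoter peak, 28.7% had any such pooled entry and 9.25% had one at rank 12004 or better. Mcm3 had no pooled entry, and only replicate 3 listed a summit there, at rank 18205. The nearest thresholded summits lay at other genes for PCNA (1088 bp away, 8 bp from the RpS18 TSS) and Mcm3 (1144 bp away, 15 bp from the Rnp4F TSS). For Mcm7 and dap the nearest lay 29322 bp and 18704 bp away.

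The peaks of most of these genes were found in every replicate. Of the 34 peaks, 29 (85.3%) were supported in all 3 replicates, against 79.3% of all protein-coding genes with a promoter peak. With any entry of the 30000 counted, 31 of the 34 had a summit within 100 bp in every list, a share not counted over all genes. The exceptions were Mcm10, CycE and aurB, each missing in replicate 3. Cdk2 and Cdc6 were listed in all 3 but fell below the 8708 strongest in replicates 3 and 1. The SD of the 3 ranks was 15.8% of their mean at the median over these 31 genes, with 3.35% at Mcm2 and 75.1% at Cdc6, where the 100 bp limit sets the rank in replicate 1. The median rank was 2466, 2293 and 2153 in replicates 1, 2 and 3, over 34, 34 and 31 genes. In each replicate the same 4 genes lay within the 200 strongest entries.

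**Figure D3:**
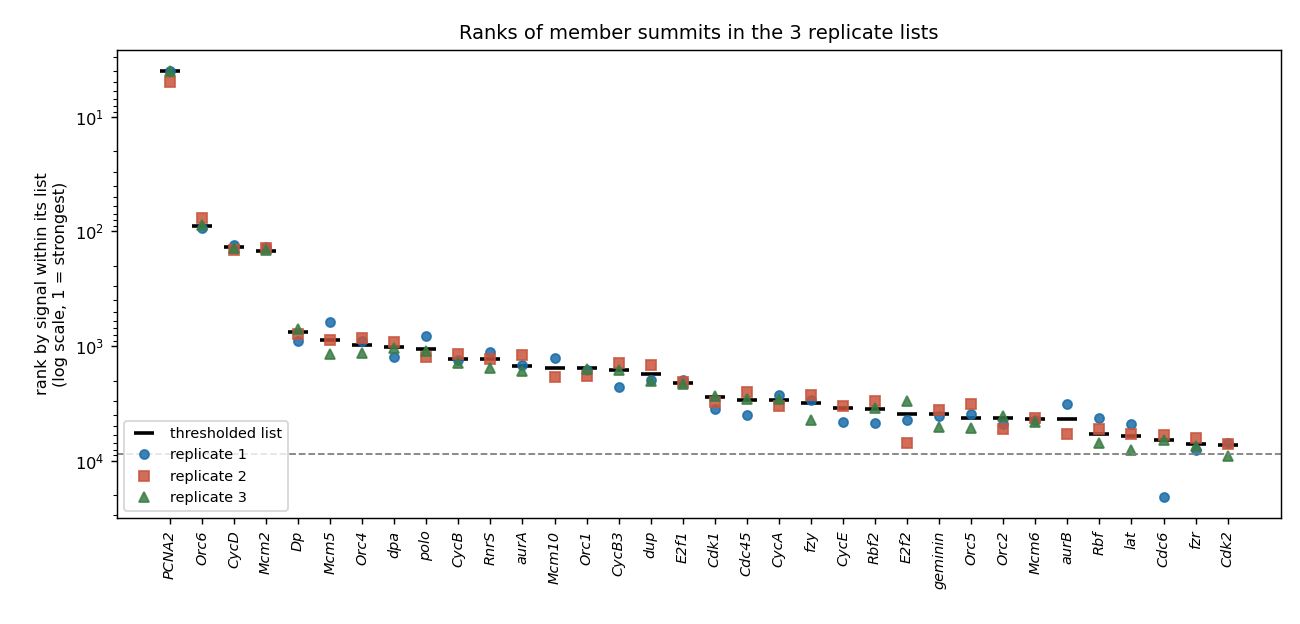
Rank by signal in each of the 3 replicate lists (points, log axis, 1 is strongest) of the entry within 100 bp of the strongest thresholded summit of each gene, with genes in order of their rank in the thresholded list (bars) and a dashed line at rank 8708. PCNA2, Orc6, CycD and Mcm2 lie within rank 200 in all 3 replicates, and Cdc6 has the widest spread, from 5909 to 20589, where replicate 1 also had an overlapping entry at rank 6307 that is not drawn.

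Taken by the strongest summit of each gene, the peaks lay close upstream of the gene's nearest start site. The median distance to the gene's TSS was 107 bp, against 83.0 bp over all genes with a promoter peak, and 29 of the 34 were within 200 bp. All but dpa were upstream of the nearest TSS of their gene, 33 of 34 or 97.1%, against 86.2%. At lat, dup, geminin, CycE, polo, E2f2 and Dp, which have more than 1 start site, the summit lay inside the gene, downstream of another of its start sites. By annotation, 22 summits were intergenic, 6 in a 5′ UTR, 4 in an intron, 2 in a 3′ UTR and 0 in a coding exon. The values closest to the 500 bp limit were those of fzr (497 bp) and Mcm2 (487 bp) inside it and Cdk4 (610 bp) outside it. Weaker further summits lay downstream of a TSS at Mcm2 (13 bp), Mcm5 (18 bp), Mcm10 (36 bp) and Dp (471 bp).

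**Figure D4:**
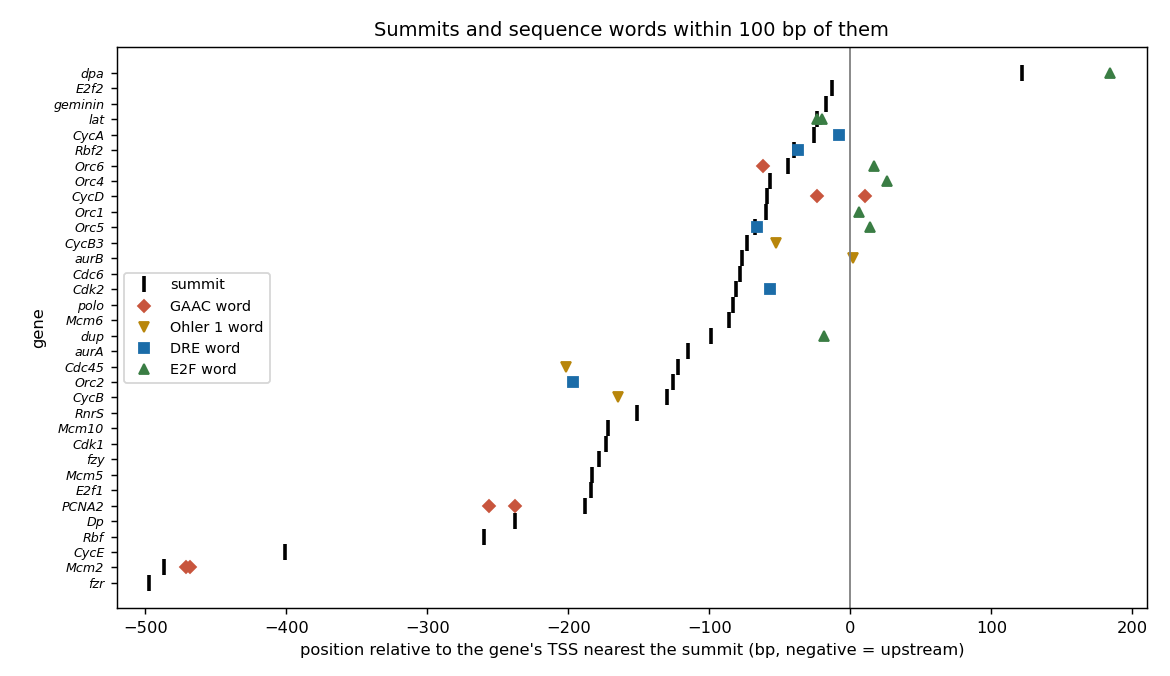
Position of the strongest thresholded summit of each gene (black bars) relative to the gene's TSS nearest the summit in bp, with negative values upstream, for the 34 genes with a promoter peak, and of the GAAC, Ohler 1, DRE and E2F words within 100 bp of it (coloured symbols). Weaker further summits are not drawn. All but dpa lie upstream of that TSS, most of them within 200 bp.

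About as often as at other genes, the summit was shared with a neighbour. In 18 of the 34 (52.9%) the summit lay within 500 bp of another gene's TSS, against 55.1% over all genes with a promoter peak, and in 8 of the 34 the nearest TSS was not that of the cell cycle gene. A neighbour's TSS within 1000 bp was present at 27 of the 41 genes, and 25 of these 27 had a peak (92.6%), against 59.8% of all genes with such a neighbour. Of the 14 genes without a neighbour, 9 had a peak (64.3%), against 27.2% of all genes without one. The share was thus above that of all genes in both classes. Orc6 and CycD were strong sites without a neighbour that shares the summit, whereas those of PCNA2 and Mcm2 lay nearer to the neighbour.

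A GAAC word lay within 100 bp of the summit at PCNA2, CycD, Mcm2 and Orc6, as marked in 3 of the stretches above, and at 0 of the other 30 peaks. Over all 5510 promoter summits the share with a GAAC word was 6.55%, and by rank it was 72.0% in the 200 strongest, 10.9% from rank 201 to 1000, 3.79% from 1001 to 4000 and 3.00% beyond. The words had been chosen from these peaks, so the match at the 4 genes is a description and adds no support. The matches lay 16 to 69 bp from the summits. The start sites of lat also hold a GAAC word, and its summits had signals of only 171.7 and 165.8.

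The DRE word, known as the site of the factor Dref in promoters of replication genes, lay within 100 bp of 5 of the 34 summits (14.7%), against 11.4% of all promoter summits. The 5 genes were Orc5, Orc2, CycA, Cdk2 and Rbf2, with signals from 143.0 to 317.0. At Orc5 and Rbf2 the word lay 2 and 3 bp from the summit. In windows from 250 bp before to 50 bp after each TSS, the DRE word was found at 8 of the 41 genes (19.5%) and at 10.2% of all genes. Of these 8, PCNA and Cdk4 had no thresholded peak. The Ohler 1 word lay within 100 bp of the summits of Cdc45, CycB, CycB3 and aurB (11.8%, against 9.60%).

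The E2F words were the most frequent relative to other promoters and the least evenly spread over the roles. In the TSS windows they were found at 17 of the 41 genes (41.5%), against 8.72% of all genes. The 17 comprised 6 of the 9 origin and licensing genes, 6 of the 8 MCM genes, 2 of the 4 enzymes, RnrL and RnrS, and 3 of the 15 cyclins, kinases and regulators, CycB, CycE and stg. None of the 5 genes of the E2F and Rbf group had one in its window. A promoter peak was present at 14 of the 17 genes with an E2F word (82.4%) and at 20 of the 24 without (83.3%). Over all protein-coding genes the shares were 55.2% with an E2F word and 41.7% without. Mcm3, RnrL and stg had the word and no thresholded peak. Around the summits, 7 of 34 (20.6%) had an E2F word within 100 bp, against 5.55% of all promoter summits, namely 6 origin and licensing genes and dpa. Within 50 bp of the summit it was found only at lat, 2.94% of the 34 against 2.38% of all promoter summits, a count too small to compare. Within 200 bp it was found at 10 of the 34 (29.4%), against 10.4%. The short word TTTGAA, the core of the cell cycle homology region, was near 47.1% of these summits and 32.6% of all, and CGATA, the word bound by BEAF and also part of the DRE word, near 52.9% and 46.0%. A match shows only that these letters are present, and binding by any of these factors was not measured.

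**Figure D5:**
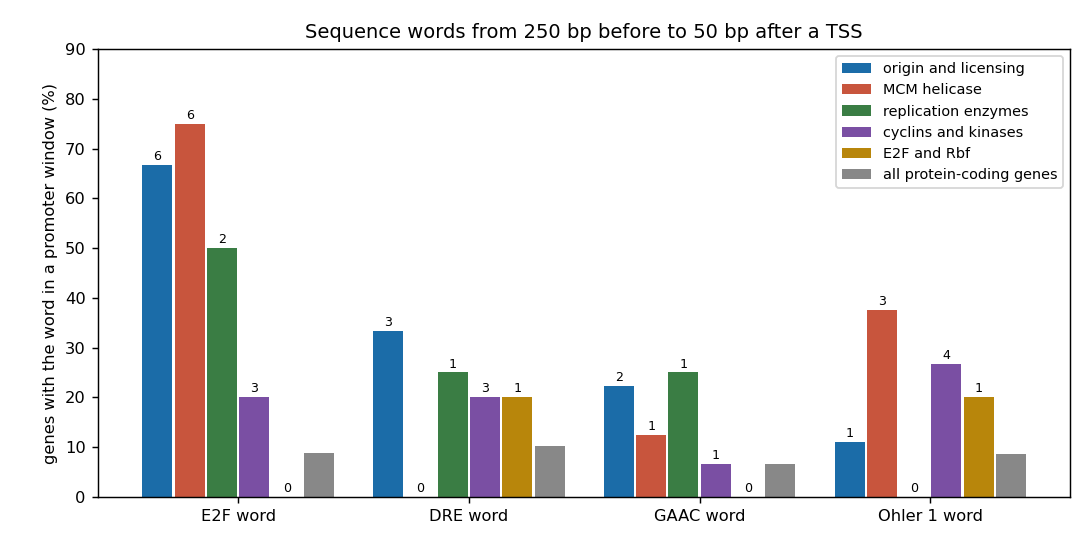
Share of genes, in percent, with each sequence word in the window from 250 bp before to 50 bp after a TSS, for the 5 roles and all protein-coding genes, with the number of genes above each bar of a role. E2F words reach 75% of MCM genes and 66.7% of origin and licensing genes, and 0 of the 5 E2F and Rbf genes.

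A wider set of 90 other replication and cell cycle genes in 9 lists, also drawn up with earlier results known, had promoter peaks at 66 (73.3%), with a median signal of 290.7. At the fork, 6 of 8 genes for GINS and origin firing had one (Cdc7, the origin-firing kinase, at 880.7), as did 9 of 10 for DNA polymerases and primase (PolA2, a subunit of polymerase alpha, at 631.2; PolD3 had none) and 7 of 11 for the clamp loader, RPA and ligation. In that last list DNAlig1, the ligase that joins Okazaki fragments, had 1955 (rank 317), and Fen1, the flap nuclease, had no peak. In mitosis, 11 of 12 spindle checkpoint and passenger genes had a peak, with 12231 (rank 135) at Incenp, the scaffold that binds aurB, and none at Bub1. The lists for the anaphase-promoting complex (9 of 14), SCF (3 of 5), checkpoint and Cdk control (7 of 11), cohesin and condensin (10 of 13) and Myb-MuvB (4 of 6) held from 60.0% to 76.9%. Sse, the separase that cuts cohesin, had 6671 (rank 180), with ranks of 181, 185 and 183. Incenp, Sse and RPA1, which shares its summit with Mcm2, were the 3 of the 90 among the 200 strongest peaks (3.33%).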

How the data were processed

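ChIP-seq against GFP was done on 3 biological replicates, all of 1 group, and the deposited lists on dm6 were used. Per the deposited descriptions, each replicate list and a list pooled over the replicates was made against a control alignment, for use in IDR, which retains peaks that rank alike in replicates. Each holds 30000 entries of peaks and background. The thresholded list holds 8708 peaks, all of them the top of the pooled list by signal. The signal value of each entry was set by the authors' peak caller, with no scale between lists. The deposited significance is a −log10 q value, and 6701 thresholded peaks are tied at its maximum of 4.127, which is why ranks use the signal. The summit is the offset deposited in the lists. Not given in the sources used here are the aligner, the caller and its version, and the cutoff of the IDR step. Lists on dm3 were not used here. Depth is unknown.

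Start sites came from the Ensembl 115 annotation (FlyBase release 6.54) of the Release 6 assembly, and sequences from RefSeq's copy of it, with exact word searches in Python 3.11.15; figures were drawn with matplotlib 3.10.9. The strongest summit within 500 bp of any TSS was taken for each gene. The search steps were checked on simulated data. The 41 genes, the 9 lists of 90 other genes, the sequence words and the comparisons were chosen with earlier results of these data known, so no test was made and counts stand beside those of all protein-coding genes. All 41 genes are named, as are some of the genes that share their summits. Of each other list, the 2 with the highest signal and the first 2 in alphabetical order without a peak could be named. Alternatives were other promoter distances, interval overlap, the stronger 50% of peaks and the nearest TSS only. Others were support with each replicate left out in turn, and other windows for support and words.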

Additional observations from a re-analysis of the deposited data

How the results depend on the processing

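The count of 34 genes with a promoter peak was 32 within 250 bp (without fzr and Rbf), 35 within 1000 bp or by interval overlap (with Cdk4), and 29 in the stronger 50% of peaks or by the nearest TSS only. The share of all protein-coding genes ran from 29.2% to 46.8% under these settings. By the nearest TSS only, 1 replication enzyme in place of 2 kept a peak, since PCNA2 was lost to its neighbour, and Orc5, dup, Cdc45 and fzy were lost likewise. The thresholded list, made from all 3 replicates, was not called again. With replicate 1, 2 or 3 left out, a summit was counted only if both remaining replicates supported it. This gave 30, 31 and 33 genes, against 36.8%, 37.4% and 35.8% of all protein-coding genes. A gene lost there thus lacked support in a replicate that was kept. The median signal of 361.6 became 420.3 within 250 bp and 326.9 within 1000 bp, as the genes named above left or entered. By the nearest TSS only it became 317.0. There Mcm2, Mcm5 and Mcm10 were also taken by weaker summits nearer to their own TSS, of 5857, 179.7 and 170.6. With words sought within 50 bp of the summit, the counts were 2 for Ohler 1 (4 within 100 bp), 1 for E2F (7) and 9 for TTTGAA (16). These were 5.88%, 2.94% and 26.5%, against 5.70%, 2.38% and 16.2% of all promoter summits. Within 200 bp the counts were 8, 10 and 20, or 23.5%, 29.4% and 58.8%, against 12.8%, 10.4% and 51.3%. Support in all 3 replicates held for 23 genes at 50 bp and 31 with any entry, against 29. No paired analysis was possible because the samples form 1 group. The unknown depth limits what can be said of entries near the threshold.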
